A study of Mus musculus with 8 samples.

Results

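The renin-angiotensin and natriuretic peptide genes examined here are 9 genes of hormone systems that act on blood vessels, kidney and fat: Agt, Agtr1a, Ace, Lnpep, Enpep, Npr1, Npr2, Npr3 and Corin. They were chosen by gene symbol, with earlier results from these same 8 libraries known, and all 9 were found among the 24821 genes of the deposited table. Their differences between genotypes are therefore given as descriptions, with no p-value, and where a gene lies against the threshold of the fit is given only as a description too. RNA was sequenced from epididymal fat, the white depot beside the testis, in 2 groups of 4 samples: wild type (WT) and knockout of Ccdc92 (KO). All mice were male and C57BL/6, and the WT mice were littermates of the same age. Both groups had been kept for 14 weeks on a high-fat diet whose calories were 60% fat, 20% protein and 20% carbohydrate. The sources used here do not say how old the mice were, which part of Ccdc92 was deleted or in which tissues. No label says that each library came from its own animal, so p-values measure the spread between these libraries, which may be technical.

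Angiotensinogen, the product of Agt, is cut by renin to angiotensin I, and angiotensin-converting enzyme (Ace) or mast cell chymase then makes angiotensin II, the ligand of the type 1 receptor encoded by Agtr1a. Fat is a known source of angiotensinogen outside the liver. Natriuretic peptides bind 3 receptors: Npr1 and Npr2 encode guanylyl cyclases that make cGMP, and Npr3 encodes a receptor without that enzyme domain, which takes the peptides up and clears them. In adipocytes, cGMP made by Npr1 is known to favour lipolysis.

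Values below are read counts per gene divided by 1 size factor per library (normalized counts), from libraries of 23681088 to 33817478 reads. A log2 fold change is KO over WT as fitted by limma on log2(normalized count + 1) across the 17798 genes that reached 10 normalized counts in 4 or more libraries, and SE is its standard error. Ccdc92 itself had 59 to 114 reads in the WT libraries and 4 to 9 in the KO libraries. By limma, with an adjusted p under 0.05 as the threshold, 41.7% of these genes were called, 20.2% higher and 21.5% lower in KO. Markers of fat were present in every library, and all 10 adipocyte markers passed the filter. They summed to between 242171.5 and 515876.0 in WT and between 1134054.6 and 1548667.4 in KO, and 9 of the 10 were higher in KO. The 10 macrophage markers summed to 122391.2 to 254766.3 in WT and 46139.1 to 72116.7 in KO, with 9 lower. The 12 markers of epididymis and vas deferens summed to 53531.1 to 119673.9 in WT and 10.9 to 1489.8 in KO, where 5 of the 8 tested were lower. The 5 include Akr1b7, which passed the filter through WT alone, and without it 4 of 7 were lower. Crisp1, the most abundant of the 12 by WT mean, had 26574.7 to 71824.5 in WT and 0 to 37.6 in KO. In at least 1 KO library, 8 of the 12 were at 0. The part of these markers in the differences below was not tested. In bulk tissue, fewer cells of a type and less RNA per cell cannot be told apart.

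Of the 9 genes, 8 passed the filter and Corin did not. Past the threshold of the fit lay 6 of the 8 (Agt, Enpep, Lnpep, Npr1, Npr2, Npr3), all higher in KO, where 20.2% of all genes were called higher. The groups did not overlap in 6 of the 8 (Agt, Agtr1a, Enpep, Lnpep, Npr1, Npr2), again all higher in KO, where this held for 21.0% of all genes. The genes were listed with this comparison known, so nothing is read from these counts. The median log2 fold change of the 8 was 0.84 and that of all genes -0.007.

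**Figure D1:**
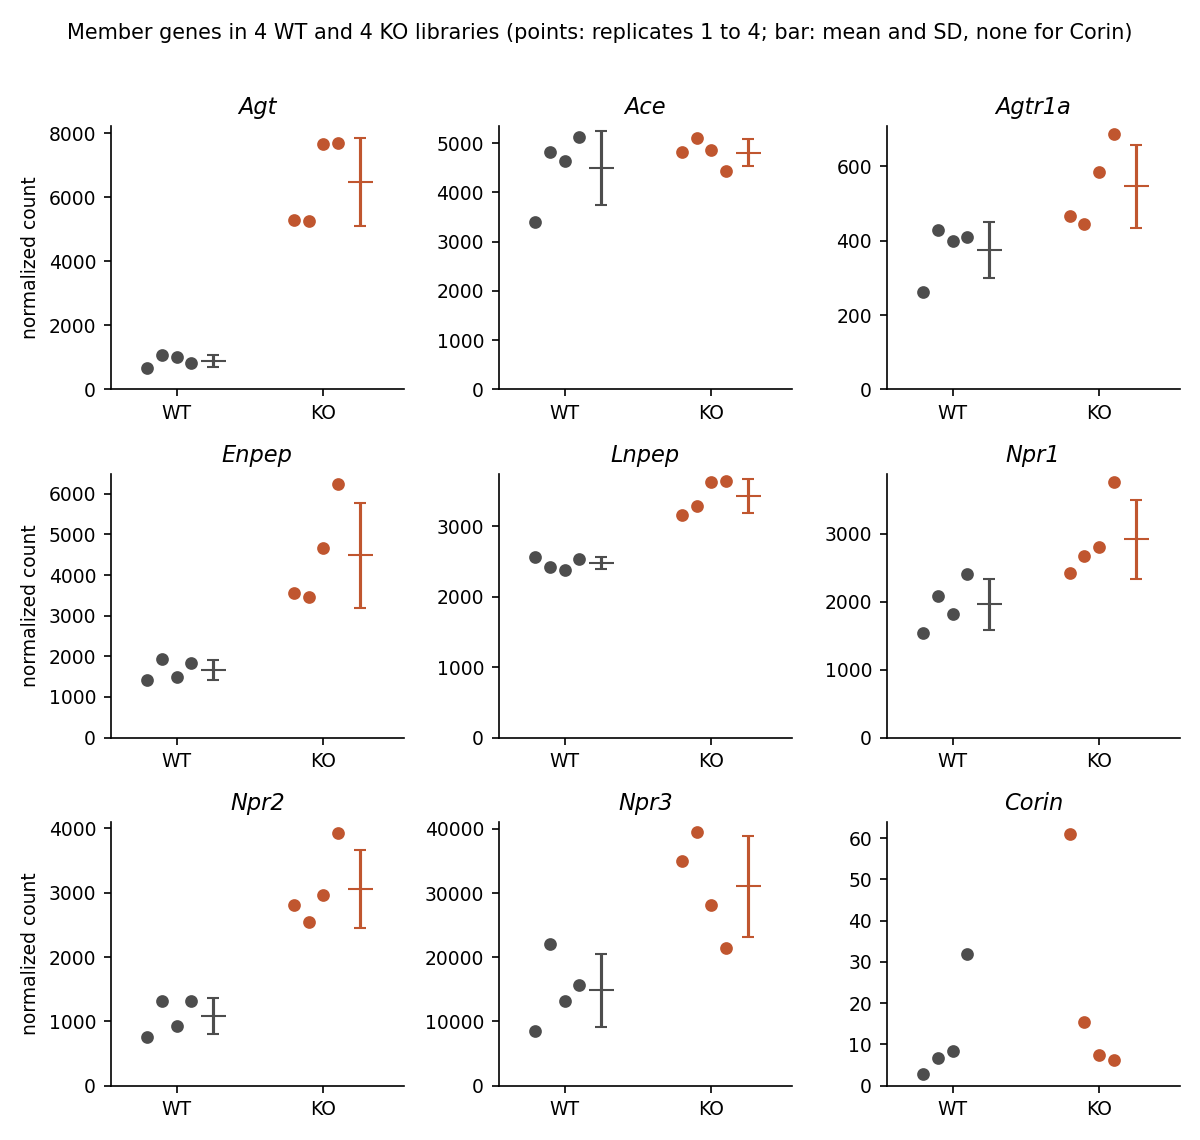
Normalized count of each of the 9 genes in the 4 WT (dark grey) and 4 KO (red-orange) libraries, with each point 1 library in replicate order and the bar beside it the mean and SD (none for Corin). Agt had the widest gap between groups, from at most 1090.5 in WT to at least 5267.4 in KO, while Ace, Npr3 and Corin overlapped.

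Agt, the only source of angiotensin peptides, stood furthest apart. It measured 660.5, 1090.5, 1004.4 and 825.8 in WT replicates 1 to 4 and 5300.9, 5267.4, 7668.3 and 7690.0 in KO replicates 1 to 4. The lowest KO library lay well above the highest WT library, and KO replicates 3 and 4 were above KO replicates 1 and 2. The means were 895 ± 191 (SD, n = 4) and 6481.7 ± 1382.9 (SD, n = 4), a ratio of 7.24, and the log2 fold change was 2.86 (SE 0.20). Agt (ENSMUSG00000031980.9, GRCm38, chromosome 8, 124556534 to 124569706, minus strand) has 1 annotated transcript of 1891 bases, and no other annotated gene was found to overlap it.

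Ace (chromosome 11, 105967945 to 105989964, plus strand), which removes 2 residues from the end of angiotensin I and also degrades bradykinin, was nearly level. It measured 3400.5, 4826.6, 4633.1 and 5115.1 in WT and 4820.6, 5109.3, 4863.9 and 4429.0 in KO. All 4 KO libraries lay within the range of the WT libraries, of which replicate 1 was the lowest. The means were 4493.9 ± 755 and 4805.7 ± 282 (SD, n = 4). The log2 fold change was 0.11 (SE 0.13), and without WT replicate 1 it was -0.02. Per kilobase of exon, Agt was at 0.451 to 0.632 of the level of Ace in WT and at 2.88 to 4.85 in KO, so the order of substrate and enzyme transcripts was opposite in the 2 groups.

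Agtr1a (chromosome 13, 30336441 to 30382867, plus strand) encodes the receptor through which angiotensin II contracts vessels and stimulates aldosterone release. It measured 262.4, 429.9, 398.2 and 410.1 in WT and 465.4, 445.2, 585.8 and 686.4 in KO. The groups did not overlap, but the highest WT and the lowest KO library were close together. The means were 375 ± 76.3 and 546 ± 112 (SD, n = 4). The fitted log2 difference was 0.54 (SE 0.20), and Agtr1a lay just outside the threshold of the fit, with Npr1 (0.57, SE 0.17) just inside it.

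Both aminopeptidases of the set were higher in KO. Enpep (chromosome 3, 129269175 to 129332720, minus strand), aminopeptidase A, converts angiotensin II to angiotensin III and is known from pericytes and kidney. It measured 1417.3, 1931.0, 1500.1 and 1824.0 in WT and 3564.6, 3456.6, 4674.7 and 6237.2 in KO. Every KO library was above every WT library, with KO replicate 4 the highest. The means were 1668.1 ± 248 and 4483.3 ± 1292.4 (SD, n = 4), with a log2 fold change of 1.40 (SE 0.20).

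Lnpep (chromosome 17, 17521410 to 17625050, minus strand), the insulin-regulated aminopeptidase that travels with the glucose transporter of fat and muscle and binds angiotensin IV, differed less but with little spread. It measured 2570.3, 2420.5, 2387.6 and 2543.0 in WT and 3168.1, 3293.4, 3635.3 and 3644.3 in KO. The groups did not overlap, at 2480.4 ± 89.8 and 3435.3 ± 242 (SD, n = 4). Its log2 fold change was 0.47 (SE 0.07), with the smallest SE of the 8 genes. The level of Enpep per kilobase was 1.66 to 2.40 times that of Lnpep in WT and 3.15 to 5.14 times in KO.

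The bases before the transcription start are shown for Agt, Npr2 and Enpep, which had the 3 largest fold changes, and for Ace, which had the smallest. Each run is the 250 bases before the RefSeq start (GRCm38.p6), 5′ to 3′ on the gene's own strand. Capitals mark any match to 8 short motifs searched on both strands. They were TATAAA (the TATA box), CCAAT (the CCAAT box), GGGCGG (the GC box), CACGTG (the E-box) and TTGCNNAA (a loose C/EBP motif). The others were AGGTCA (the nuclear receptor half-site), TGAGTCA (the AP-1 site) and TGACGTCA (the cAMP response element). The C/EBP motif fixes the half-site TTGC but not its partner. For Ace, which has 2 RefSeq starts, the upstream one is shown.
Agt, chr8:124569707-124569956, minus strand: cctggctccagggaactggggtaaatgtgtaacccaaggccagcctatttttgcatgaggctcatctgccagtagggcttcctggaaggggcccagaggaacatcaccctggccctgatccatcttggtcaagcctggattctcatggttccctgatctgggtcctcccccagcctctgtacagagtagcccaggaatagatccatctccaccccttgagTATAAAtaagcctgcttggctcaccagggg
Npr2, chr4:43631685-43631934, plus strand: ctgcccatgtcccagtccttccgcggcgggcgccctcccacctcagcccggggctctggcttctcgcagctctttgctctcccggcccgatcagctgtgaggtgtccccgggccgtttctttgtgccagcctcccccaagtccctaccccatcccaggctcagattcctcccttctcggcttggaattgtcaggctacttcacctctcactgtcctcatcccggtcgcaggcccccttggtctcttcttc
Enpep, chr3:129332750-129332999, minus strand: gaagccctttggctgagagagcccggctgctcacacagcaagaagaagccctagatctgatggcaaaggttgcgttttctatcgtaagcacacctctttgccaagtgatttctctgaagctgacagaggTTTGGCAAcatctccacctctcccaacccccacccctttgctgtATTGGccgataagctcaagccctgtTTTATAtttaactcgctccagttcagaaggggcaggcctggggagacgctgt
Ace, chr11:105967698-105967947, plus strand: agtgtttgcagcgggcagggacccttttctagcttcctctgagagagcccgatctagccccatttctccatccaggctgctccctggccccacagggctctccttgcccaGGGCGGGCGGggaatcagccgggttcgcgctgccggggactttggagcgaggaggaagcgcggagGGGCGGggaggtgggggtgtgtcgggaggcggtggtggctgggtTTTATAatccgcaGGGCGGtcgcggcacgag

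In Agt the 1 match was a TATA box, 30 to 25 bases before the start, a motif found in 12.4% of the 32851 RefSeq windows of this length. Enpep held a TATA box, a CCAAT box and the loose C/EBP motif, each on the opposite strand. These occur in 12.4%, 33.8% and 9.56% of windows. Ace held a TATA box on the opposite strand and 4 GC boxes, of which 2 overlap, a motif found in 32.7% of windows. The window of Npr2 held no match to the 8 motifs. G and C made up 55.6% of the bases for Agt, 64.4% for Npr2, 52.4% for Enpep and 67.2% for Ace, against a median of 52.4% over all windows. The remaining motifs, the E-box, nuclear receptor half-site, AP-1 site and cAMP response element, were in 6.02%, 14.0%, 4.46% and 1.55% of windows and in none of the 4 shown. As the Npr2 window held none, no motif of the 8 could be in the windows of all 3 genes with the largest differences. A match is a string of letters, not a measured site. RefSeq windows were found for 8 of the 9 genes, all but Agtr1a.

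Other genes of the renin-angiotensin system fell or did not pass. This list and that of the other natriuretic peptide and cGMP genes were also chosen with earlier results of these data known. Their counts and p-values are therefore descriptions too. Of 19 genes listed here, 14 were tested. By limma 7 of these fell, against 21.5% of all genes called lower, and 0 rose. The 7 include Ctsg, which passed the filter through WT alone, and without it 6 of 13 fell. At an unadjusted p under 0.05 limma also had 0 higher, as did edgeR and DESeq2 at an adjusted p. The median log2 fold change was -0.72, and -0.62 without Ctsg. Agtr1b and Mrgprd were not found among the genes of the deposited table. Agtr2, Mas1 and Klk1 did not pass the filter, with at most 10.2, 7.3 and 8.3 normalized counts in any library, respectively.

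Mast cell enzymes of this list were among those that fell. Cma1, a mast cell chymase gene, measured 1585.1, 709.7, 2331.0 and 1190.1 in WT and 118.4, 160.7, 118.2 and 126.1 in KO. Whether its product makes angiotensin II in this tissue was not tested. The groups did not overlap, and Cma1 fell by 3.35 on the log2 scale (SE 0.32, limma adjusted p = 0.000379). Cpa3, the mast cell carboxypeptidase, fell by 3.50 on the log2 scale (limma adjusted p = 0.000396). Ctsg, cathepsin G, had 81 reads in WT and 7 in KO. It passed the filter through the WT libraries alone, so it had to differ, and its values are a description. The markers of mast cells, a list that also holds Cma1 and Cpa3, summed to 4085.2 to 11569.4 in WT and 1034.0 to 1416.9 in KO, and 7 of 8 were lower. None of them was at 0 in any library, and their part in the values of Cma1, Cpa3 and Ctsg was not tested.

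Anpep, aminopeptidase N, converts angiotensin III to angiotensin IV. It measured 22584.4, 8194.4, 14750.7 and 9776.1 in WT and 1464.0, 2661.9, 1411.3 and 1760.9 in KO. It fell by 2.86 on the log2 scale (SE 0.33, limma adjusted p = 0.000646), with no overlap. It thus fell while Enpep, the enzyme of the step before it, was higher in KO. WT replicate 1, the highest for Anpep, also had the highest summed macrophage markers, and their part was not tested.

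Smaller falls were found in 3 further genes. Prcp, a carboxypeptidase that shortens angiotensin II, fell by 1.06 on the log2 scale (SE 0.15, limma adjusted p = 0.00121). Atp6ap2, the prorenin receptor and a proton pump subunit, fell by 0.83 (SE 0.16, limma adjusted p = 0.00414), and Dpp3, a dipeptidyl peptidase, fell by 0.46 (SE 0.09, limma adjusted p = 0.00548). The 7 tested genes that did not pass were Ren1, Agtrap, Mme, Thop1, Nln, Prep and Rnpep. Mme, neprilysin, degrades both angiotensins and natriuretic peptides, and its fitted difference was -0.62 (SE 0.30, limma adjusted p = 0.128).

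Ren1 encodes renin and was at or near the limit of detection. Its reads numbered 7, 7, 13 and 89 in WT replicates 1 to 4 and 29, 17, 0 and 0 in KO replicates 1 to 4. WT replicate 4 held most of the WT reads (95% exact Poisson interval 71.5 to 110.0), and in the 2 KO libraries with no read the same interval reaches 3.69 reads. Poisson intervals cover counting error only. The spread within each group was wider than the difference between them (log2 fold change -1.72, SE 1.34, limma adjusted p = 0.329).

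**Figure D2:**
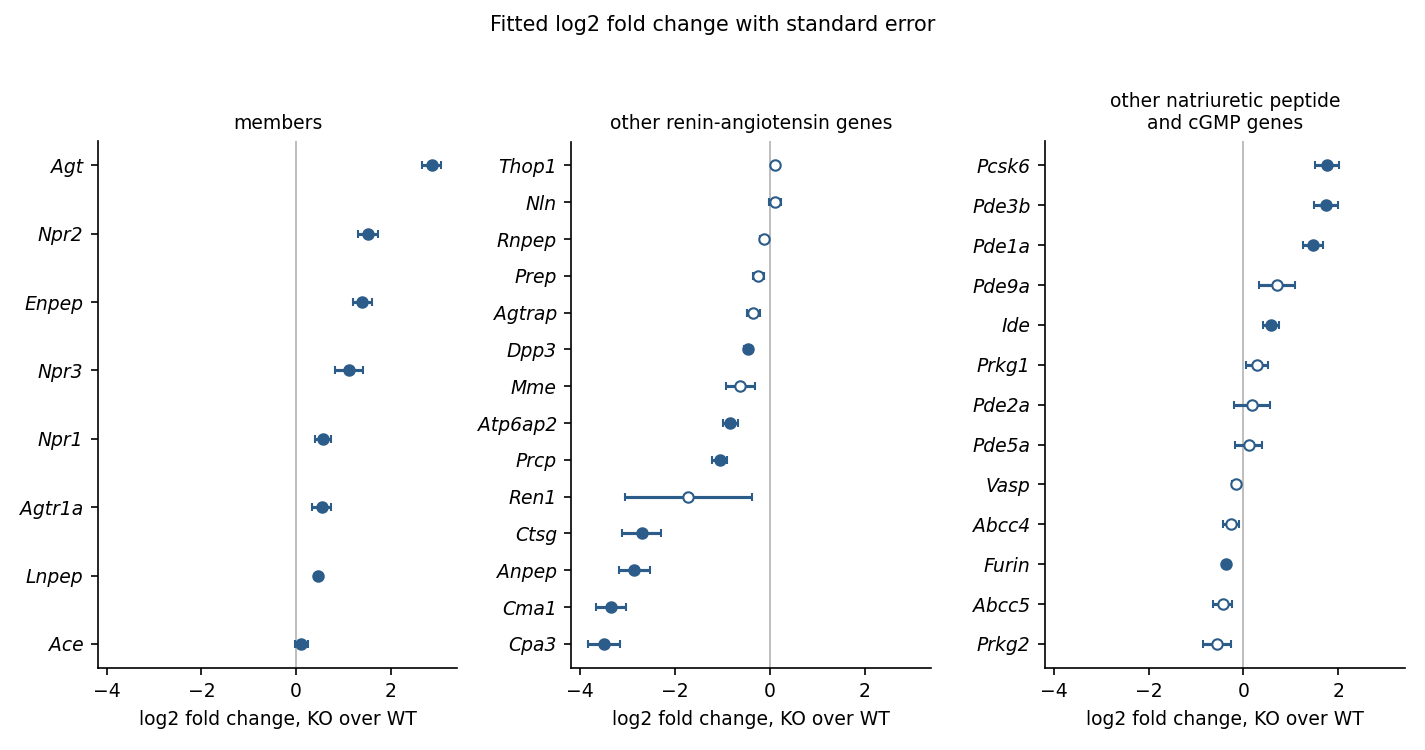
Fitted log2 fold change, KO over WT, with its standard error, for the 8 tested genes of the set (left, no test), the 14 other renin-angiotensin genes (middle) and the 13 other natriuretic peptide and cGMP genes (right); in the middle and right panels filled symbols passed limma's test, and in the left panel all are filled. Points of the left panel run from 0.11 for Ace to 2.86 for Agt, and all 7 filled points of the middle panel, Ctsg among them, lie below 0.

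All 3 natriuretic peptide receptors were higher in KO, by different amounts. Npr1 (chromosome 3, 90450591 to 90465866, minus strand), the guanylyl cyclase receptor for the atrial and B-type peptides, measured 1538.3, 2088.8, 1817.6 and 2413.8 in WT and 2429.2, 2670.5, 2810.9 and 3766.8 in KO. WT replicate 4 and KO replicate 1 almost touched, and KO replicate 4 was the highest. Mean levels were 1964.6 ± 374 and 2919.3 ± 587 (SD, n = 4). The fitted log2 difference was 0.57 (SE 0.17), and it ran from 0.44 to 0.69 over the alternatives tried.

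Npr2 (chromosome 4, 43631935 to 43651244, plus strand), the guanylyl cyclase receptor for C-type natriuretic peptide, measured 751.3, 1319.4, 933.9 and 1309.9 in WT and 2809.6, 2545.7, 2961.3 and 3934.2 in KO. The lowest KO library was clearly above the highest WT library. The means were 1078.6 ± 283 (SD, n = 4) and 3062.7 ± 606 (SD, n = 4), a ratio of 2.84, and the log2 fold change was 1.52 (SE 0.21).

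Npr3 (chromosome 15, 11839896 to 11907287, minus strand), the clearance receptor, was the most abundant of the 3. It measured 8499.9, 22054.0, 13150.3 and 15629.1 in WT and 34949.5, 39455.2, 28212.8 and 21462.0 in KO. The groups overlapped, because WT replicate 2 was above KO replicate 4. Mean levels were 14833.3 ± 5648.5 and 31019.9 ± 7870.4 (SD, n = 4). The fitted log2 difference was 1.11 (SE 0.30), the largest SE of the 8 genes, and without WT replicate 4 and KO replicate 3 together Npr3 was no longer past the threshold of the fit. Npr1, Npr2 and Npr3 share 559, 266 and 321 exon bases with genes on the opposite strand (Gm16048, Gm12473 and Gm5144), and no source used here gives the strand setting of the counting, so reads of both strands cannot be told apart. The highest value of those 3 genes in any library was 141.0, far below the receptors. Ace and Corin also share exon bases with a gene on the opposite strand (295 with Gm11651 and 147 with Gm20647). Neither of these opposite-strand genes was in the deposited table, so their level is not known here.

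The receptor mix was compared per kilobase of merged exon. Npr3 held 65.2%, 76.6%, 70.7% and 67.9% of the summed level of the 3 receptors in WT and 77.0%, 79.2%, 71.1% and 58.4% in KO. These shares overlapped, with means of 70.1 ± 4.84% and 71.4 ± 9.35% (SD, n = 4), so the clearance receptor held a like share in both groups within the spread. The ratio of Npr1 to Npr3 also overlapped, at 0.186 to 0.355 in WT and 0.133 to 0.345 in KO. By contrast, the ratio of Npr1 to Npr2 was 2.0, 1.54, 1.9 and 1.8 in WT and 0.844, 1.02, 0.926 and 0.934 in KO. These ranges did not overlap, with means of 1.81 ± 0.195 and 0.932 ± 0.0736 (SD, n = 4). Npr1 thus exceeded Npr2 in all 4 WT libraries, and in KO the 2 cyclase receptors were at nearly equal level. The groups' ranges of this ratio differ by the same factor whatever length is used, since the length enters both groups alike.

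**Figure D3:**
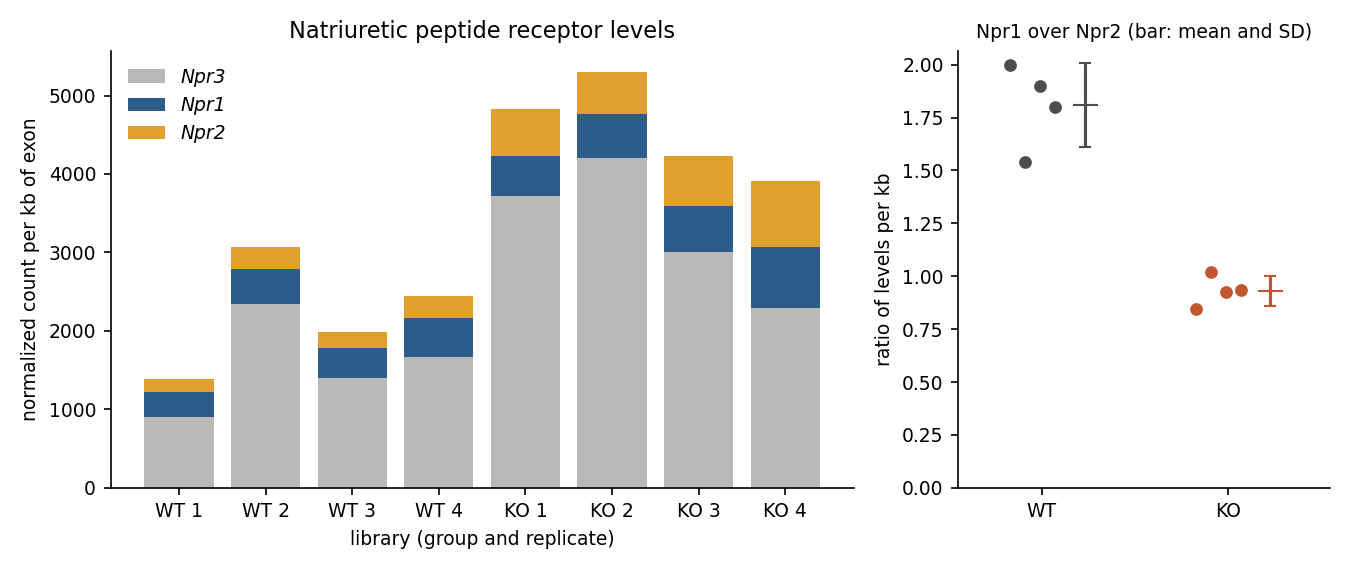
Left, level of Npr3, Npr1 and Npr2 in normalized counts per kilobase of merged exon, stacked for each of the 8 libraries; right, ratio of Npr1 to Npr2 in each library with mean and SD. Npr3 makes up 58.4% to 79.2% of each stack, and the ratio falls between 1.54 and 2.0 in WT and between 0.844 and 1.02 in KO.

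Corin, the membrane protease that activates atrial natriuretic peptide in the heart, was scarce and did not pass the filter. Its reads numbered 3, 7, 9 and 34 in WT replicates 1 to 4 and 53, 18, 7 and 5 in KO replicates 1 to 4. WT replicate 4 (95% exact Poisson interval 23.5 to 47.5) and KO replicate 1 (39.7 to 69.3) were above the other libraries of their groups, and the groups overlapped. The same 2 libraries held the most Ren1 reads of their groups. WT replicate 4 also differed from the other WT libraries in some markers of epididymis and vas deferens. Akr1b7 was at 80635.9 there and at 188.1 to 211.6 in the others, and Adam7 at 0.9 against 7804.6 to 19828.7. The part of that difference in the Corin and Ren1 reads was not tested. Corin did not enter the fit, so its difference between genotypes was not tested. Its spread within a group went beyond counting error, as the intervals of WT replicate 1 (0.619 to 8.77) and KO replicate 4 (1.62 to 11.7) show. Corin lies on chromosome 5 (72300025 to 72504473, minus strand).

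The other genes of natriuretic peptide processing and cGMP turnover, a list also chosen with earlier results known, went both ways. Of 17 listed, 13 were tested, and by limma 4 rose (20.2% of all genes were called higher) and 1 fell (21.5% called lower), with a median log2 fold change of 0.19. The peptide genes Nppa, Nppb and Nppc and the Npr3 ligand Ostn were not found among the genes of the deposited table, so they have no values here.

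Pcsk6, a proprotein convertase that activates corin, measured 715.5, 1078.0, 1255.1 and 1441.0 in WT and 2880.9, 3252.4, 3787.9 and 5262.1 in KO. It rose by 1.77 on the log2 scale (SE 0.25, limma adjusted p = 0.0012), while its substrate Corin had at most 53 reads in any library. Furin, a related convertase that cuts natriuretic peptide precursors, fell slightly (-0.37, SE 0.07, limma adjusted p = 0.0036). Ide, which degrades insulin and atrial natriuretic peptide, rose by 0.58 (SE 0.17, limma adjusted p = 0.0255), with overlapping groups. Ide did not pass when replicate 2, 3 or 4 of WT was left out (limma adjusted p = 0.0599, 0.065 and 0.0604) or replicate 1 or 2 of KO (0.0504 and 0.0554), nor without WT replicate 4 and KO replicate 3 together (0.0811).

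Among enzymes that break down cyclic nucleotides, 2 rose. Pde3b, the adipocyte phosphodiesterase that insulin activates and cGMP inhibits, measured 2406.1, 4897.8, 3038.3 and 4151.6 in WT and 9996.2, 8824.9, 14274.6 and 14608.8 in KO. It rose by 1.74 on the log2 scale (SE 0.25, limma adjusted p = 0.00142). Pde1a, a calmodulin-dependent phosphodiesterase, rose by 1.47 (SE 0.22, limma adjusted p = 0.00151). The cGMP-specific Pde5a (0.11, SE 0.28, limma adjusted p = 0.782) and Pde9a (0.71, SE 0.38, limma adjusted p = 0.162) did not pass. Prkg1, the main cGMP-dependent kinase of smooth muscle, did not pass either, at 103.7 to 205.1 in WT and 159.1 to 210.3 in KO. The remaining genes that did not pass were Prkg2, Pde2a, Abcc4, Abcc5 and Vasp.

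Per kilobase, the order of the 9 genes differed between groups. In WT the means ran from Npr3 (1579.9 ± 602), Ace (850 ± 143), Agt (473 ± 101), Npr1 (411 ± 78.3), Enpep (354 ± 52.7), Npr2 (231 ± 60.6), Lnpep (175 ± 6.35) and Agtr1a (135 ± 27.4) down to Corin (2.30 ± 2.44; SD, n = 4 for each). Neighbouring pairs whose ranges overlapped there were Npr3 and Ace, Agt and Npr1, Npr1 and Enpep, and Npr2 and Lnpep. In KO, Agt (3427.6 ± 731) and Npr3 (3303.9 ± 838) led with overlapping ranges, followed by Enpep (953 ± 275), Ace (909 ± 53.2), Npr2 (656 ± 130), Npr1 (610 ± 123), Lnpep (243 ± 17.1), Agtr1a (196 ± 40.4) and Corin (4.16 ± 4.81). Enpep and Ace, Ace and Npr2, Npr2 and Npr1, and Lnpep and Agtr1a overlapped. Agt thus moved from place 3 to place 1 and Enpep from place 5 to place 3. With the longest transcript as length, Npr3 led in KO and Npr1 stood before Agt in WT.

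Some libraries held the extreme values of their group for many of the 9 genes. WT replicate 1 was the lowest WT library for 8 of the 9 genes and the highest for Lnpep. It also had the lowest summed adipocyte markers of all libraries (242171.5) and the highest summed macrophage markers (254766.3). KO replicate 4 was the highest KO library for 6 of the 9 genes and the lowest for Ace, Npr3 and Corin. The endothelial markers, 8 genes of which 5 were higher in KO, summed to 14826.6 to 30158.1 in WT and 34979.4 to 38520.3 in KO. The 8 mural cell markers summed to 14707.4 to 64355.2 in WT and 22393.4 to 34130.1 in KO, 2 higher and 1 lower, and WT replicate 4 was the highest. In that library Myh11 (25665.5), Acta2 (14833.2) and Cnn1 (7307.0) lay far above the other WT libraries (at most 3574.5, 4387.2 and 241.4). No endothelial or mural marker was at 0, and the part of these cells in the receptor and peptidase levels was not tested.

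Set against the summed adipocyte markers, a measure added after the values had been seen, the genes divided. Agt had 1.97 to 3.19 counts per 1000 adipocyte marker counts in WT and 4.39 to 5.08 in KO, with no overlap, and was the 1 gene of the 9 with a higher mean in KO on this scale. This scale leans on 2 markers with the largest ratios of KO to WT means. Car3 had means of 82497.1 in WT and 474527.9 in KO (ratio 5.75), and Cfd 6435.3 and 145086.2 (ratio 22.5). The other markers had ratios from 0.98 (Lep) to 4.23 (Slc2a4). The ratio was 2.84 for Npr2 and 2.69 for Enpep, within that range. The scale without Car3 and Cfd was not computed, so the direction of Npr2 and Enpep without them is not known here. With all 10 markers in the sum, Npr2 had 2.56 to 3.13 in WT and 1.96 to 2.54 in KO. Npr1 had 4.05 to 6.35 in WT and 1.86 to 2.43 in KO, and Ace 9.36 to 14.7 and 2.86 to 4.51, both lower in every KO library. Enpep (3.74 to 5.85 and 2.95 to 4.03) and Corin overlapped, and the other genes were lower in every KO library. The log2 fold change of Agt exceeded that of 9 of the 10 adipocyte markers, while that of Npr2 exceeded 3, that of Enpep 2 and that of each other tested gene 1. Set against the 8 summed endothelial markers instead, Agt (30.6 to 49.2 per 1000 in WT, 137 to 220 in KO) and Npr2 (43.8 to 50.7 and 66.1 to 112) were higher in every KO library, Ace was lower in every KO library (160 to 229 and 127 to 134), and the others overlapped. Set against the 8 summed mural cell markers, Agt, Enpep (28.3 to 96.4 per 1000 in WT, 103 to 279 in KO), Npr2 and Npr3 (243 to 888 and 958 to 1246.2) were higher in every KO library, and Ace, Agtr1a, Lnpep, Npr1 and Corin overlapped. For Agt, Enpep, Npr2 and Npr3 the lowest WT value on that scale was in WT replicate 4, the library with the highest mural sum. Set against the 10 summed macrophage markers, the 8 tested genes were higher in every KO library, and Corin overlapped. The direction of each tested gene but Agt thus depended on the markers it was set against.

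**Figure D4:**
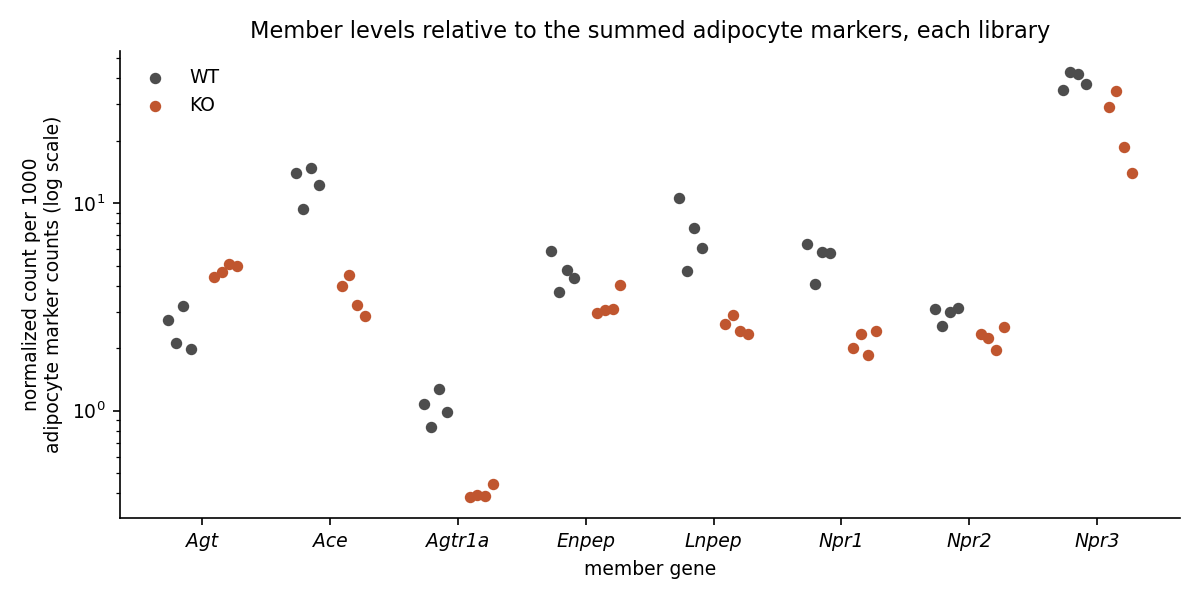
Normalized counts of 8 genes per 1000 normalized counts of the 10 summed adipocyte markers, on a log axis, with 1 point per library (WT dark grey, KO red-orange). Agt lies higher in KO (4.39 to 5.08) than in WT (1.97 to 3.19), and for the other 7 genes the KO mean lies below the WT mean. The sum includes Car3 and Cfd, the markers with the largest ratios of KO to WT means, and the scale without them was not computed.

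Genes whose profile over the 8 libraries was nearest to Agt and Npr3 were picked by the root mean squared difference of log2 values, each gene centred on its own mean, among 12958 genes of mean normalized count at least 50. For Agt these were Opn3 (0.159), Car3 (0.234) and Mogat1 (0.249), where the median gene was at 1.477. Opn3, a light-sensing receptor gene, measured 134.8 to 183.7 in WT and 825.5 to 1149.1 in KO. For Npr3 they were Zdhhc2 (0.097), Gpc4 (0.124) and Rgs5 (0.129), where the median gene was at 0.738. Rgs5, a marker of mural cells, shared with Npr3 the low value of WT replicate 1 (2355.7) and the lowest KO value in replicate 4 (5901.2). Likeness over 8 libraries is a description, and these genes were picked as the nearest of all those compared.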

How the data were processed

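The authors deposited 1 table of normalized counts (a signal: read counts divided by 1 factor per library), 1 column per sample. Per the submitters' processing notes the tools include STAR 2.7.7 and DESeq2 and the build is GRCm38.p6. The read counter, strand setting, annotation and filters are not stated there. Each deposited value above 0 was a whole number of reads times 1 constant per library (100.0% of values, tolerance 0.01 read), so whole reads were recovered. Of the gene identifiers, 24802 of 24821 matched GENCODE M21 without their version.

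The members and lists were chosen with earlier results of these data known. limma 3.58.1 (R 4.3.3) was fitted to log2(normalized count + 1) with group alone, variance trend and robust moderation; p-values were adjusted by Benjamini-Hochberg over all 17798 genes tested. This fold scale understates changes of low genes. Recovered reads were also tested with edgeR 4.0.16 (quasi-likelihood, TMM), which called 7459 genes, and DESeq2 1.42.0. Other alternatives were scaling, pseudocount, filter, left-out libraries and a replicate block. Levels per kilobase used merged GENCODE exons. The fits were tested on simulated data. All 9 members are named, each pathway list is accounted for by name or count (1 further renin-angiotensin gene was left out of its list and is not reported here), and genes alike Agt and Npr3 were the nearest 3, predicted genes and pseudogenes left out. Markers of fibroblasts with progenitors (0 of 8 higher, 2 lower), mesothelium (0 and 0 of 8), lipid-associated macrophages (1 higher, 7 lower of 8) and muscle (1 and 1 of 4 tested) were also counted by limma. No pair of libraries within a group agreed within counting noise (chi-square per degree of freedom 24.7 to 410.2).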

Additional observations from a re-analysis of the deposited data

Results flagged for a closer look

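Groups of 4 values were examined for the 9 genes, the tested genes of the 2 other lists and the ratios between the 9 genes. In 2 of these 90 groups, 1 library stood far from the others of its group, by Dixon's ratio of gap to range at its 95% critical value. Chance flags about 1 in 20 such groups. Corin was 60.9 in KO replicate 1 and 6.06 to 15.4 in the other KO libraries. Ren1 reached 83.3 in WT replicate 4, where the remaining WT libraries had 6.42 to 12.1. Both are genes of low counts. Cell type markers were not among the groups examined. Some of them also held a stray value in WT replicate 4, such as Cnn1 (7307.0, against 178.9 to 241.4 in the other WT libraries).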

How the results depend on the processing

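Over 18 alternatives, limma, edgeR or DESeq2 called 5481 to 8336 genes. The 9 genes had 5 to 7 past the threshold, the other renin-angiotensin genes 6 to 9 lower and 0 higher, and the other natriuretic peptide and cGMP genes 3 to 5 higher and 1 lower. Quantile normalization shifted the all-gene median by 0.104 on the log2 scale and the share of calls that were higher from 48.4% to 58.5%. Of the 144 refits of the 8 tested members, 1 changed sign: Ace, at -0.02 without WT replicate 1 (-0.02 to 0.18 over left-out libraries). Npr1 no longer passed the threshold when replicate 1 or 3 of WT, or replicate 3 or 4 of KO, was left out, and Agtr1a came inside it in 6 alternatives, DESeq2 among them. Among genes that did not pass, 3 changed sign when a library was left out, with ranges of 0 to 0.20 for Nln, -0.05 to 0.37 for Pde2a and -0.04 to 0.39 for Pde5a. Ctsg failed the filter when any WT library was left out or the filter was 50, and ran from -3.35 to -1.72 over the settings that kept it. The cause of these changes was not tested. With the replicate number as a replicate block, 6266 genes were called, 7 members were past the threshold, and 7 and 5 genes of the other lists were called. The deviations of same-numbered libraries had correlations of -0.143 to 0.172, which shows no sign that the numbers pair the samples. With 4 libraries per group, this check cannot exclude a pairing. Low counts limit Corin, Agtr2 and Mas1, which had 10.2 or fewer normalized counts in most libraries, and Ren1, with 0 reads in 2 libraries. For Corin and Ren1 the spread between libraries of a group also went beyond counting error.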
